A study of Mus musculus with 6 samples.

Results

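Transcripts of 32 genes that mark endothelial cells, the cells lining blood and lymph vessels, were examined in cultures labelled as mouse pulmonary arterial smooth muscle cells. The genes were chosen by symbol, and 32 of 32 were found among the 21785 rows of the deposited table. The cells were grown from lungs of C57BL/6 mice by instilling iron particles in agarose through the pulmonary artery, collecting the iron-bearing fragments of the minced lobes with a magnet, digesting them with collagenase and letting cells grow out. Cultures were then kept for 48 h in medium without supplements. The 3 stimulated samples received bone morphogenetic protein 9 (BMP9) at 1 ng/mL together with BMP10 at 5 ng/mL for 6 h, and the 3 control samples received neither. The labels name no genetic change in either group. They do not state whether the samples came from separate animals or cultures, so the tests weigh differences against the spread of these 6 libraries, which may be technical. Levels are the deposited normalized read counts, and changes are on the log2(value + 1) scale with their SE. Estimated depth was 23.3 to 28.0 M reads in 5 libraries and 54.4 M in stimulated replicate 3.

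BMP9 and BMP10 circulate in blood and bind the type I receptor ALK1, encoded by Acvrl1, which is best known from endothelial cells, together with the type II receptor BMPR2 and the co-receptor endoglin. The receptors phosphorylate SMAD proteins that enter the nucleus and switch on target genes. Endothelial identity itself is kept by transcription factors of the ETS, SOXF and GATA families, which act on genes for junctions, surface receptors, coagulation proteins and nitric oxide synthesis. Cultures grown out from pieces of vessel can hold endothelial cells beside smooth muscle cells.

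All 32 genes were detected in each of the 6 libraries, with normalized read counts from 17 to 12615, and each passed the filter on low values. The defining endothelial markers were therefore present in cultures labelled as smooth muscle, beside the smooth muscle markers Acta2 (23470 or more in each library) and Myh11 (2154 or more). Per kb of exon, Cdh5, which encodes the junction protein VE-cadherin, had the highest level of the 32 genes in 6 of 6 libraries, at 1574 ± 1236 normalized counts per kb in controls (SD, n = 3). Cldn5 followed at 974 ± 888, Pecam1 at 729 ± 585 and Cd34 at 520.1 ± 391 normalized counts per kb. Prox1, the master regulator of lymphatic endothelium, was lowest in 6 of 6 libraries, at 9.85 ± 1.44 per kb in controls. In the controls, 0 of the 31 pairs of neighbours in this order differed by more than their SDs together. Among stimulated samples 1 pair did, Apold1 above Prox1. After stimulation Cldn5 stood at rank 11 instead of rank 2, with 284 ± 257 normalized counts per kb. Clec14a stood at rank 9 instead of rank 25, with 356 ± 291 against 88.0 ± 81.0 per kb in controls.

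Much of that spread lay in replicate 2. Of the 32 genes, 30 were highest in replicate 2 of both groups, as were 22.7% of all genes tested. The pattern is given as a description, with no test. The sum over the 32 genes was 19682, 71914 and 23989 in control replicates 1, 2 and 3, and 17324, 63880 and 26511 in stimulated replicates 1, 2 and 3. The ratio of replicate 2 to the mean of the other replicates had a median of 3.53 in controls and 3.22 in stimulated samples, against 1.0 and 0.993 over all genes tested. The exceptions were Gata2 and Prox1. Gata2, a GATA factor also made by blood progenitors and mast cells, was at 264, 165 and 264 in the controls, so its replicate 2 was the lowest of the group. Prox1 was at 70, 84 and 94 in the controls and at 61, 59 and 50 in the stimulated samples. Prox1 thus varied little with the replicate number, while the lymphatic and sinusoidal surface receptor gene Lyve1 stood at 382, 1437 and 516 in the controls and followed the other genes. The ratio differed among members. Ets1, an ETS factor also made by lymphocytes and stromal cells, had ratios of 2.06 and 1.93 in controls and stimulated samples, Fli1 ratios of 2.05 and 1.19, and Vwf, which encodes von Willebrand factor, ratios of 2.11 and 1.57. Sox18 had 6.20 and 3.63, and Tmem100 had 4.91 and 4.98.

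**Figure D1:**
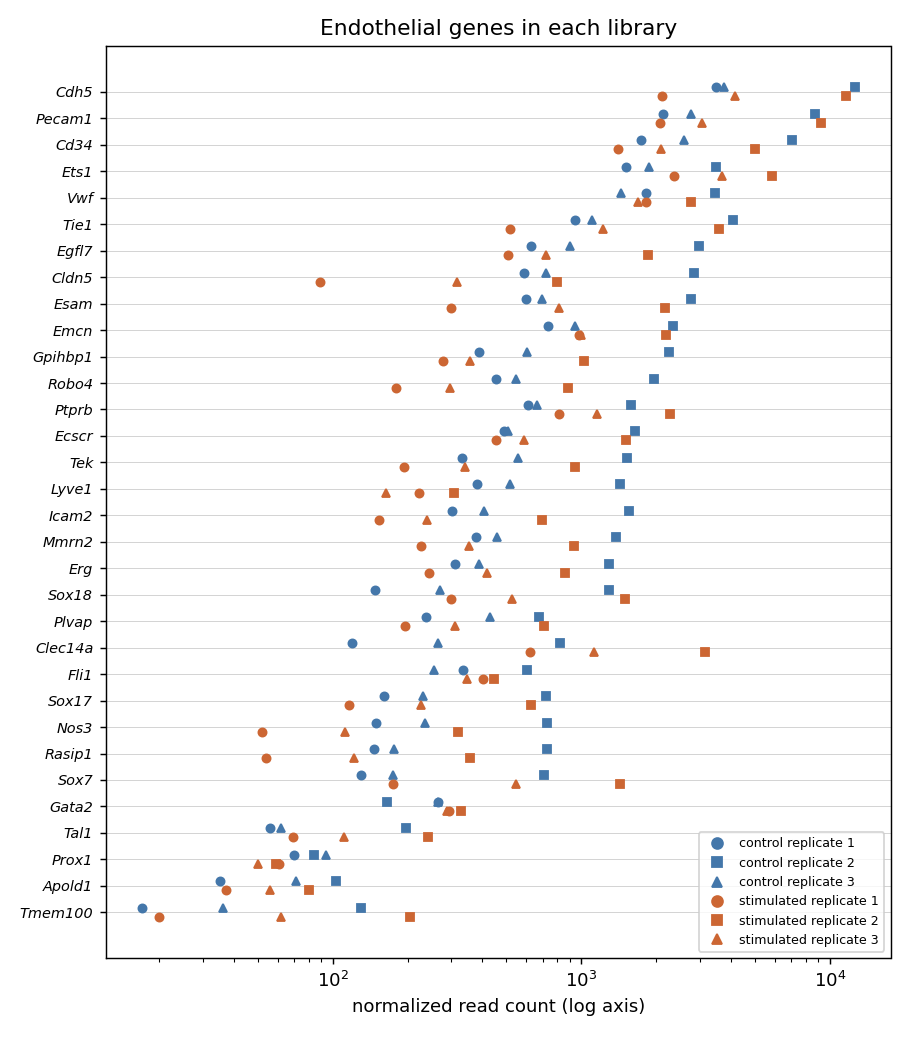
Normalized read count (log axis) of each of the 32 endothelial genes in the 6 libraries, controls in blue and stimulated samples in orange, with circles, squares and triangles for replicates 1, 2 and 3, ordered by the control mean. The squares lie to the right of the other symbols of their colour for 30 of the 32 genes, and the exceptions are Gata2 and Prox1.

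Markers of other cell types also differed by replicate number. Of 10 lung epithelial genes 7 were highest in replicate 2 of both groups, as were 5 of 6 mesothelial, 8 of 10 fibroblast and 6 of 8 pericyte genes. The same held for 3 of 10 smooth muscle, 1 of 10 macrophage and 1 of 6 platelet and mast cell genes. The epithelial sum was 8334, 36162 and 9299 in control replicates 1, 2 and 3 and 3381, 37038 and 18014 in the stimulated ones. This sum differed most within pairs 1 and 3, but much of it was Sftpc, at 19538 in control and 29469 in stimulated replicate 2. The median log2 difference of the 10 epithelial genes was -1.77, -1.03 and 0.40 in pairs 1, 2 and 3, so they also differed within pair 2. Macrophage genes summed to between 95416 and 164058 in controls and between 142352 and 212227 in stimulated samples. Platelet and mast cell genes summed to between 1634 and 3900 in controls and between 1794 and 2269 in stimulated samples. Most of that sum was Pf4, the platelet factor 4 gene, at 1129, 1193 and 688 against 1488, 882 and 1135, and Kit, at 444, 2545 and 771 against 184, 1255 and 442. In all libraries Itga2b lay between 40 and 97, Gp1ba between 29 and 73, Ppbp between 0 and 17 and Cpa3 between 9 and 36. Of the 12 listed genes of platelets, mast cells and blood progenitors, 6 were found in the deposited table. Gata1, Gp9, Cma1, Ms4a2, Hba-a1 and Hbb-bs had no row there. The smooth muscle sum lay between 68644 and 87507 in controls and between 138293 and 251531 in stimulated samples, the pericyte sum between 22220 and 32098 and between 32741 and 42281, and the fibroblast sum between 437936 and 598352 and between 347399 and 627404. The mesothelial sum lay between 1353 and 4660 in controls and between 433 and 3235 after stimulation. In bulk RNA, fewer cells of a type and less RNA per cell cannot be told apart. The part of these other cell types in the differences below was not tested.

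**Figure D2:**
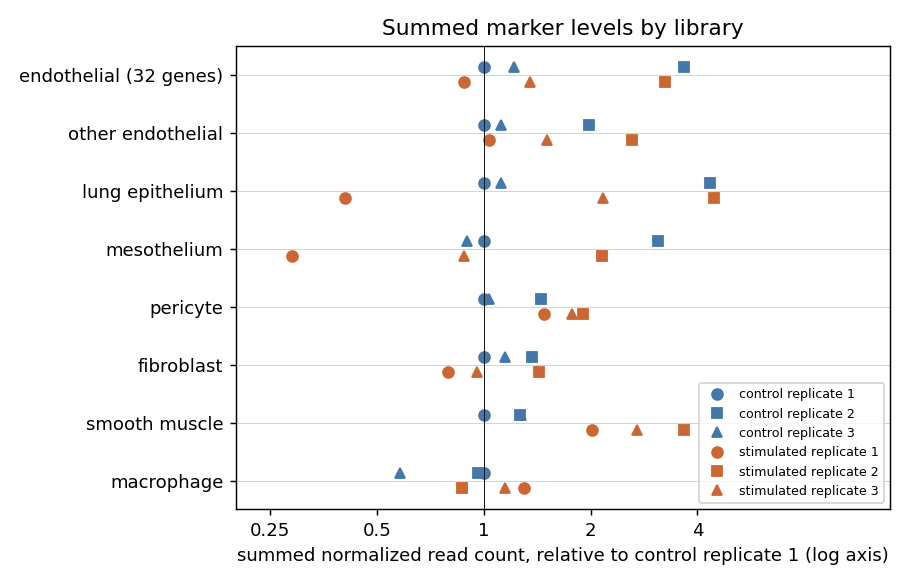
Summed normalized read count of 8 marker lists in each library, divided by that of control replicate 1 (log axis), with controls in blue, stimulated samples in orange, and circles, squares and triangles for replicates 1, 2 and 3. Endothelial, epithelial, mesothelial, pericyte and fibroblast sums are highest in replicate 2 of both groups, smooth muscle sums in that of the stimulated group alone, and macrophage sums in neither.

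The comparison of stimulated with control samples asks which of these transcripts changed with BMP9 and BMP10. With treatment as the only term, 0 of the 32 genes passed limma at an adjusted p under 0.05 (Benjamini-Hochberg), where 8.61% of all genes were called higher and 4.75% lower. At an unadjusted p under 0.05 there were 3, namely Clec14a, Lyve1 and Prox1. Stimulated and control values were fully separate for 3 genes, Gata2 (higher), Lyve1 and Prox1 (lower), as they were for 33.2% of all genes, 17.8% higher and 15.4% lower. When the replicate number was entered as a block, so that each stimulated library was compared with the control of its own number, 5 of the 32 genes rose and 11 fell, and 16 did not pass. In that fit 14.9% of all genes were called higher and 12.0% lower, 26.8% in all. The 5 rises were Clec14a, Sox7, Ets1, Sox18 and Ptprb, and the 11 falls were Cldn5, Lyve1, Nos3, Robo4, Rasip1, Icam2, Gpihbp1, Tek, Mmrn2, Egfl7 and Cd34. Over the 32 genes the median log2 change was -0.24, against -0.03 over all genes. By pair, the median was -0.29, -0.34 and 0.09 in pairs 1, 2 and 3. Of the 32 genes 8 were higher and 13 lower in each of the 3 pairs, where 27.2% and 28.2% of all genes were, and 11 were mixed. Leaving out a pair ended most of the calls of the paired fit. Each such fit held 2 pairs and had less power, so lost power and dependence on a pair cannot be told apart. Without pair 2 the paired fit called 2 members higher (Clec14a and Sox18) and 1 lower (Tek), where 5.62% and 2.69% of all genes were called, 8.31% in all. Without pair 1 it called 1 member (Clec14a, limma adjusted p = 0.0427), with 268 of all genes higher and 66 lower. Without pair 3 limma called 0 members and 0 of all 21622 genes. At an unadjusted p under 0.05 there were 17 members in each of these fits with a pair left out. The share of all genes at an unadjusted p under 0.05 was not computed. Neither this count nor the earlier 3 can therefore be set against a background. The direction of each of the 16 genes was the same in 3 of 3 pairs. The fit that called them weighs the mean against the disagreement of these same pairs, so this adds no support.

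**Figure D3:**
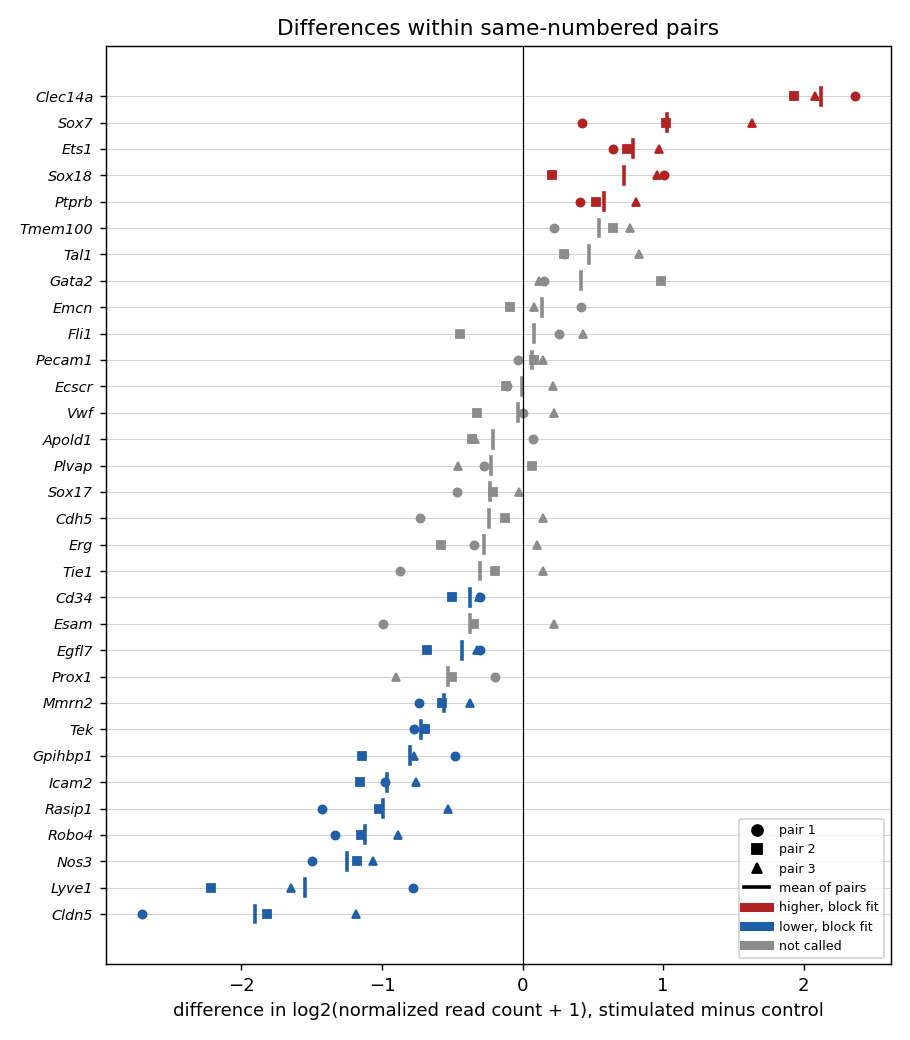
Difference in log2(normalized read count + 1), stimulated minus control, within pairs 1 (circles), 2 (squares) and 3 (triangles) for each of the 32 genes, with a bar at the mean of the 3 pairs. Red marks the 5 genes called higher and blue the 11 called lower by limma with the replicate block, and grey the 16 genes not called. Clec14a is at 1.93 or above and Cldn5 at -1.18 or below in each pair.

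Clec14a, which encodes a C-type lectin of the endothelial surface that binds the matrix protein multimerin 2, had the largest rise. It stood at 120, 821 and 265 in control replicates 1, 2 and 3 and at 622, 3134 and 1125 in the stimulated ones. Each stimulated library was 3.82-fold to 5.18-fold above the control of its number, although the groups overlap because control replicate 2 exceeds stimulated replicate 1. The change was 2.13 ± 0.10 (SE) on the log2(value + 1) scale with the block (limma adjusted p = 7.62e-05, and 0.132 without the block). The largest fall was that of Cldn5, which encodes claudin-5, the tight junction protein of endothelium. Its values were 588, 2830 and 721 in the controls and 89, 801 and 317 after stimulation, which is 6.61-fold, 3.53-fold and 2.27-fold lower in pairs 1, 2 and 3 (-1.90 ± 0.26 with the block, limma adjusted p = 0.00289, and 0.208 without). Robo4, an endothelial receptor of the roundabout family, went from 452, 1965 and 548 to 179, 884 and 296. Each stimulated library was 1.85-fold to 2.53-fold below the control of its number (-1.12 ± 0.11, limma adjusted p = 0.000848 with the block and 0.361 without). Tek, which encodes the angiopoietin receptor TIE2, went from 331, 1525 and 554 to 193, 942 and 342, with a log2 difference of -0.72 ± 0.08 (limma adjusted p = 0.00165 with the block and 0.558 without). The pairs of Tek differed least, at -0.78, -0.69 and -0.69.

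The sequences next to the start of these 4 genes are shown because they are the members that moved most, or most evenly, among those with a RefSeq promoter window. Each is the stretch of 150 bases just before both the RefSeq start and the GENCODE gene, 5′ to 3′ on the gene's strand in GRCm38.p6, which has the coordinates of mm10. Capitals mark GGAA or its reverse complement TTCC, the core letters of ETS factor sites.
Clec14a: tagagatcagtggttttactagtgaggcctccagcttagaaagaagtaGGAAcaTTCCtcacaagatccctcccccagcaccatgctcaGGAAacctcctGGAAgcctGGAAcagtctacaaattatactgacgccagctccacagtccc
Cldn5: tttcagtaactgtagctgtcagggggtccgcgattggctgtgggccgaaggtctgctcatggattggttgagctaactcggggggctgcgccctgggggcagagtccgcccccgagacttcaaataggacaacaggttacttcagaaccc
Robo4: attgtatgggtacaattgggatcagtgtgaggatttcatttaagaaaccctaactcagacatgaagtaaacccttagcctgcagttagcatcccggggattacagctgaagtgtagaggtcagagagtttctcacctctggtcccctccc
Tek: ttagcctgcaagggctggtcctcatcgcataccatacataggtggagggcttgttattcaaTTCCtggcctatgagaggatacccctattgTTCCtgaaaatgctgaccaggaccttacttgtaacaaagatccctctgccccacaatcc

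In mm10 the genes themselves lie at chr12:58264720-58269290 on the minus strand (Clec14a) and, on the plus strand, at chr16:18776847-18778262 (Cldn5), chr9:37401897-37415115 (Robo4) and chr4:94739289-94874976 (Tek). The stretch of Clec14a lies on the minus strand at chr12:58269291-58269440 and holds 5 such cores. That of Cldn5 is at chr16:18776697-18776846 and that of Robo4 at chr9:37401747-37401896, both on the plus strand and with 0 cores, and that of Tek at chr4:94739139-94739288 on the plus strand has 2. Windows of 250 bases before the start were available for 14 of the 32 genes, 21 windows in all, among 32851 windows of all genes. The core GGAA on either strand was in 90.5% of the member windows and 93.4% of all windows. The longer AGGAAG, which contains GGAA, was in 42.9% against 29.5%, and CCGGAA in 0 of 21 against 12.0%. The SMAD-binding letters GGCGCC were in 14.3% of member windows and 9.6% of all, GGAGCC in 14.3% and 26.0%, and the SOX-type letters AACAAT in 14.3% and 9.4%, each searched on both strands. These are matches of letters and not sites.

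Of the 6 genes for junctions and adhesion, 2 fell in the paired fit and none rose. Beside Cldn5 this was Icam2, an adhesion receptor for leukocytes, which went from 302, 1551 and 406 to 153, 694 and 240. The change of Icam2 was -0.96 ± 0.11 (limma adjusted p = 0.00149 with the block and 0.446 without). Pecam1, the adhesion molecule CD31, was at 2126, 8731 and 2767 in the controls and at 2078, 9255 and 3066 after stimulation. Within each pair the stimulated value of Pecam1 was thus 0.977-fold to 1.11-fold the control value (0.07 ± 0.07, limma adjusted p = 0.498 with the block, and -0.11 when library totals were made equal). Ecscr, an endothelial surface protein, was likewise close within pairs, at 488, 1638 and 506 against 452, 1512 and 588 (limma adjusted p = 0.986 with the block). Cdh5 was at 3486, 12615 and 3747 in the controls and at 2104, 11574 and 4138 in the stimulated samples, so it was lower in pairs 1 and 2 and higher in pair 3. Esam, a junction molecule of endothelium and platelets, had the same order, at 597, 2764 and 692 against 299, 2176 and 810. Neither passed with the block (limma adjusted p = 0.306 for Cdh5 and 0.238 for Esam).

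The receptor group went both ways. Beside the falls of Tek and Robo4, Ptprb rose, from 610, 1588 and 661 to 812, 2278 and 1159. Ptprb encodes the vascular endothelial phosphatase VE-PTP, which removes phosphate from TIE2, and its change was 0.58 ± 0.09 (limma adjusted p = 0.00584 with the block and 0.478 without). Tie1, the sister receptor of TIE2, was at 947, 4092 and 1102 in the controls and at 518, 3580 and 1219 after stimulation, lower in pairs 1 and 2 and higher in pair 3 (-0.31 ± 0.18, limma adjusted p = 0.253 with the block).

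Of the 5 genes for surface glycoproteins and lipoprotein handling, 3 fell in the paired fit. Lyve1, a hyaluronan receptor of lymphatic endothelium and of some macrophages, went from 382, 1437 and 516 to 222, 308 and 164. Every stimulated value of Lyve1 was below every control value, and its replicate 2 stood at 3.2 times the mean of the other replicates in controls and 1.6 times after stimulation. The change was -1.55 ± 0.25 (limma adjusted p = 0.00541 with the block and 0.0833 without), and without both replicate 2 libraries Lyve1 was the single member called without the block (limma adjusted p = 0.0457). In that fit 6.97% of all genes were called higher and 4.13% lower. Gpihbp1, which holds lipoprotein lipase on capillaries, went from 389, 2258 and 606 to 278, 1023 and 355 (-0.80 ± 0.13, limma adjusted p = 0.00593 with the block and 0.526 without). Cd34, a sialomucin shared with blood progenitors and fibroblasts, went from 1733, 7047 and 2594 to 1406, 4988 and 2089, a log2 difference of -0.37 ± 0.07 (limma adjusted p = 0.00973 with the block and 0.741 without). Emcn, which encodes endomucin, was at 735, 2337 and 940 in the controls and 979, 2195 and 996 in the stimulated samples. Plvap, the diaphragm protein of fenestrae and caveolae, was at 237, 678 and 428 against 196, 709 and 311. Neither Emcn nor Plvap passed (limma adjusted p = 0.392 and 0.235 with the block), and their pairs were mixed in direction.

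The matrix protein Mmrn2, multimerin 2, and the surface protein Clec14a that binds it changed in opposite directions in the paired fit. Mmrn2 went from 378, 1384 and 457 to 226, 932 and 353 (-0.56 ± 0.10, limma adjusted p = 0.00845 with the block and 0.62 without). Egfl7, a secreted matrix protein of endothelium, fell from 625, 2963 and 899 to 507, 1853 and 718 (-0.43 ± 0.10, limma adjusted p = 0.0183 with the block and 0.722 without). Of the exonic bases of Egfl7, 3.4% also lie in an antisense gene's exons. Vwf was at 1821, 3458 and 1449 in the controls and at 1824, 2757 and 1689 after stimulation. The pairs of Vwf were mixed, with a mean difference of -0.03 ± 0.11 (limma adjusted p = 0.844 with the block).

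Of the 4 signalling enzymes and effectors, Nos3 and Rasip1 fell. Nos3, endothelial nitric oxide synthase, went from 149, 727 and 235 to 52, 320 and 112, which is 2.87-fold, 2.27-fold and 2.1-fold lower in pairs 1, 2 and 3 (-1.25 ± 0.14, limma adjusted p = 0.00131 with the block and 0.343 without). Rasip1, a RAS-interacting protein needed for vessel lumens, went from 147, 728 and 177 to 54, 358 and 122 (-0.99 ± 0.18, limma adjusted p = 0.00937 with the block and 0.48 without). Antisense exons overlap 32.3% of the Nos3 exons and 22.5% of the Rasip1 exons by length. The counting is not stated to use strand, so both levels are uncertain. Tmem100, a membrane protein gene known as a target of ALK1 signalling in endothelium, was low. It was at 17, 130 and 36 in the controls and at 20, 204 and 62 after stimulation, higher in 3 of 3 pairs but not past the threshold (0.55 ± 0.21, limma adjusted p = 0.109 with the block and 0.762 without). Apold1, an early response gene of endothelium, was at 35, 103 and 71 against 37, 80 and 56, with mixed pairs (limma adjusted p = 0.494 with the block).

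Of the 9 transcription factors, 3 rose, none fell and 6 did not pass in the paired fit, which called 14.9% of all genes higher and 12.0% lower. Their median log2 change was 0.42, against -0.03 over all genes. Whether they differ from the other members was not tested. Sox7 went from 130, 705 and 175 to 175, 1433 and 545, which is 1.35-fold, 2.03-fold and 3.11-fold higher in pairs 1, 2 and 3 (1.03 ± 0.21, limma adjusted p = 0.0144 with the block and 0.497 without). Sox18, mutated in a syndrome of hair loss and lymphedema, went from 148, 1292 and 269 to 298, 1494 and 524. Sox18 was higher by 1.0 and 0.96 in pairs 1 and 3 and by 0.21 in pair 2, whose control was the highest (the mean was 0.72 ± 0.16, limma adjusted p = 0.0202 with the block and 0.642 without). The paired call of Sox18 was lost with equal library totals (0.0521). Sox17, the third SOXF factor, was at 161, 723 and 230 against 116, 626 and 226 (-0.23 ± 0.12, limma adjusted p = 0.213 with the block). An antisense gene overlaps 16.8% of the Sox17 exons by length, and for the remaining members such overlap was 3.5% or less.

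Ets1 went from 1515, 3485 and 1873 to 2367, 5838 and 3678, higher by 0.79 ± 0.08 (limma adjusted p = 0.00105 with the block and 0.247 without). The endothelial ETS factor Erg was at 309, 1287 and 389 in the controls and at 243, 859 and 417 after stimulation, lower in pairs 1 and 2 and higher in pair 3 (-0.28 ± 0.14, limma adjusted p = 0.193 with the block). Its relative Fli1 was at 334, 606 and 256 against 401, 445 and 346, higher in pairs 1 and 3 and lower in pair 2 (limma adjusted p = 0.761 with the block). Tal1, a regulator shared by blood and endothelium, was at 56, 197 and 62 against 69, 242 and 111, higher in each pair without passing (limma adjusted p = 0.0943 with the block). Gata2 was at 294, 327 and 287 in the stimulated samples, above each control value given earlier, by 0.42 ± 0.19 on average (limma adjusted p = 0.148 with the block and 0.234 without). Prox1 was lower in each pair (-0.53 ± 0.21, limma adjusted p = 0.107 with the block and 0.139 without).

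Because Pecam1 differed little within pairs, each gene was also expressed as a percent of Pecam1 in its own library. This reference was chosen after the values were seen, and the ratios are a description. Clec14a stood at 5.64%, 9.4% and 9.58% of Pecam1 in the controls and at 29.9%, 33.9% and 36.7% in the stimulated samples. Cldn5 stood at 27.7%, 32.4% and 26.1% in the controls and at 4.28%, 8.65% and 10.3% after stimulation. On this scale the groups no longer overlapped for either gene. The ratio of Robo4 went from 21.3%, 22.5% and 19.8% to 8.61%, 9.55% and 9.65%, that of Icam2 from 14.2%, 17.8% and 14.7% to 7.36%, 7.5% and 7.83%, and that of Nos3 from 7.01%, 8.33% and 8.49% to 2.5%, 3.46% and 3.65%. The 3 controls of Robo4, Icam2 and Nos3 thus lie closer together once divided by Pecam1 than their counts do. Of 31 genes, 17 were lower and 7 higher relative to Pecam1 in each of the 3 pairs, where 32.9% and 23.1% of all genes were. The groups did not overlap for 15 lower and 2 higher genes, and for 2.43% and 1.52% of all genes, most of which do not share the replicate 2 excess of Pecam1. With Cdh5 as the reference 8 of 31 were lower and 9 higher in each pair (9.7% and 28.2% of all genes), and 8 lower and 7 higher did not overlap (1.4% and 2.41%). With the median of the other members 8 of 32 were lower and 17 higher in each pair, and 6 lower and 10 higher did not overlap. Relative to the median of the members, 7.69% of all genes were lower and 58.7% higher in each pair, and 0.842% and 4.58% did not overlap. The balance of higher and lower members therefore turned with the reference. The shares of all genes turned in the same way, so this turn is not particular to the members.

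**Figure D4:**
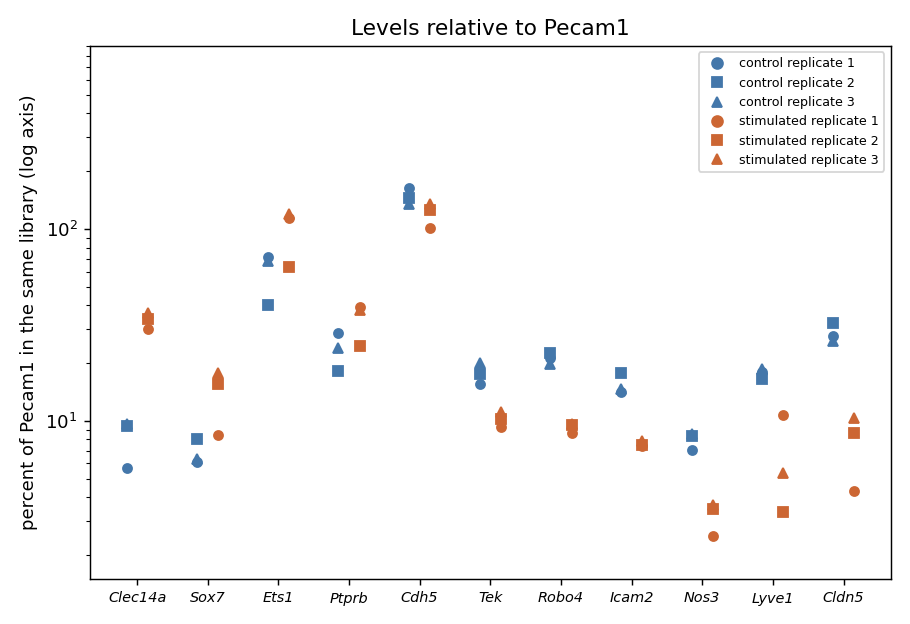
Level of 11 endothelial genes as a percent of Pecam1 in the same library (log axis), controls in blue and stimulated samples in orange, with circles, squares and triangles for replicates 1, 2 and 3. Clec14a and Sox7 are above their controls in each of the 3 stimulated libraries. Cdh5, Tek, Robo4, Icam2, Nos3, Lyve1 and Cldn5 are below theirs, Cdh5 narrowly (135% against 135.4% at the closest). The groups overlap for Ets1 and Ptprb.

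A second list held 40 other endothelial genes. Of these, 3 rose and 2 fell with treatment as the only term, close to the 8.61% and 4.75% of all genes. With the replicate block 12 rose and 11 fell, where 14.9% and 12.0% of all genes were called. The median log2 change was 0.01, against -0.03 over all genes. Edn1, which encodes the vasoconstrictor endothelin-1, went from 50, 146 and 82 to 489, 1277 and 732, higher by 3.18 ± 0.46 without the block (limma adjusted p = 0.00718). Unc5b, a netrin receptor, went from 2569, 3875 and 2568 to 9451, 17861 and 13467, and Flt1, the VEGF receptor 1 gene, from 1420, 1657 and 1108 to 2764, 5663 and 4225 (limma adjusted p = 0.00363 and 0.0127). The falls were Thbd, thrombomodulin, from 8031, 6030 and 9129 to 3367, 2419 and 3031, and Nr2f2, the venous factor COUP-TFII, from 2317, 2681 and 2791 to 1454, 1878 and 1574 (limma adjusted p = 0.00502 and 0.0157). Thbd was lowest in replicate 2 of both groups, and Nr2f2 was not highest in replicate 2 of the controls, both unlike the 30 members. The rises Edn1, Unc5b and Flt1 were highest in replicate 2 of both groups. Their ratios to the other replicates were below the member medians of 3.53 in controls and 3.22 in stimulated samples. Pcdh12, a protocadherin of endothelium, went from 223, 1043 and 315 to 24, 197 and 79 and passed with the block (-2.51 ± 0.22, limma adjusted p = 0.00066) but not without it (0.0961). Kdr, the VEGF receptor 2 gene, went from 337, 2007 and 630 to 708, 6850 and 2220 and likewise passed with the block (limma adjusted p = 0.000843) but not without it (0.319).

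The receptors and response genes through which BMP9 acts in endothelium formed a separate list. Of its 19 tested genes, 12 rose and 2 fell without the block, where 8.61% and 4.75% of all genes were called. With it 12 rose and 2 fell, where 14.9% and 12.0% were. The median log2 change was 1.64, against -0.03 over all genes. The smallest p-values belonged to Smad7, Bmpr2, Id2, Smad6, Apln and Id1, of which Apln, the gene of the peptide apelin, fell from 1463, 2317 and 1240 to 257, 162 and 172. Smad6 went from 181, 290 and 224 to 2387, 4890 and 2755, and Acvrl1 was at 2529, 2440 and 2418 against 2172, 3355 and 2301. Acvrl1 was not highest in replicate 2 of the controls, and neither was Bmpr2, at 4244, 4788 and 4865. The control transcripts of both thus did not follow those of the members. Of the 19 genes, 13 were highest in replicate 2 of both groups. Their median ratio of replicate 2 to the other replicates was 1.385 in controls and 1.333 in stimulated samples. For the members it was 3.53 and 3.22. Which cells carried the changes of this list was not tested.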

How the data were processed

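Stranded total RNA libraries were made from 3 control and 3 stimulated samples, per the labels' protocols. The submitters' processing notes list DESeq2 1.18.1, featureCounts 1.6.3, STAR 2.6.1d, Trimmomatic 0.38 and FastQC, with mm10, hg38 and GRCh38 as builds. For the annotation and strand setting, the entry is: not given in the sources used here. The deposited score per gene behaved as a read count times 1 factor per library, rounded, judged from skipped or doubled whole numbers. Library totals were 27.3 to 31.9 M. Reads were not recovered, so no count model was used, and 0 library pairs were identical.

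Symbols came from GENCODE M21 (mm10) for 21747 of 21785 IDs. The 21743 genes averaging at least 1 were fitted with limma 3.58.1 in R 4.3.3 (intensity trend, log2(value + 1), Benjamini-Hochberg adjustment, threshold 0.05). This scale understates the change of low genes. Treatment was the only term, with 4 residual degrees of freedom, and the replicate block left 2. Pairing was checked over 13185 genes averaging at least 50. Deviations from the group means of libraries sharing a number had correlations of 0.747, 0.741 and 0.218. For pairs 1 and 2 these were higher than any correlation with a library of another number, and for pair 3 this was not so. The number was used as a pair for all 3, although the check does not settle pair 3. Its meaning is not labelled, and control 3 had a higher correlation with stimulated 1 (0.287). The fits were also run on simulated data. Those had the same spread setting for all genes and, for the block, a replicate effect equal in both groups. They therefore do not test the pairing by number.

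Alternatives were other scalings, filters and pseudocounts, left-out libraries, and the block. Ratios to Pecam1, the block without pair 1 or 3, and the block with upper-quartile or TMM factors were chosen after seeing the data. Members and lists were chosen with earlier results of these data known. Each member is named with its values. Of the other lists up to 6 genes with the smallest p are named, and the further genes (Kdr, Acvrl1 and the cell type markers and those in the closing section) were chosen after their values were seen. Exon lengths and antisense overlaps came from GENCODE M21, and promoter windows from RefSeq (GRCm38.p6).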

Additional observations from a re-analysis of the deposited data

How the results depend on the processing

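Without the replicate block, the members' count of 0 calls stayed at 0 in either direction under each scaling, filter, pseudocount and single left-out library, except for 1 lower call without both replicate 2 libraries. With the replicate block 5 members were higher and 11 lower, with equal library totals 4 and 14, with upper-quartile or TMM factors 5 and 11. The block without both replicate 2 libraries called 2 higher and 1 lower, without both replicate 1 libraries 1 and 0, and without both replicate 3 libraries 0 and 0. Of the 40 other endothelial genes, 12 were higher and 11 lower with the block or with the block and TMM factors, 11 and 15 with the block and equal totals, 12 and 13 with the block and upper-quartile factors, 5 and 2 without both replicate 2 libraries in either fit, and 0 and 0 with the block without both replicate 3 libraries. Leaving out 1 library gave 2 to 5 higher and 1 to 2 lower, with the lowest without control replicate 3 or stimulated replicate 3. Of the BMP9 list, lower calls numbered 1 with the block without both replicate 2 libraries and 0 without both replicate 1 libraries, and both directions had 0 without both replicate 3 libraries. Leaving out 1 library gave 1 to 2 lower. Over all genes, 1135 were higher and 2265 lower with equal totals, so the split turned from 1873 and 1032, and the median change of all genes moved from -0.03 to -0.20, a shift of -0.17. The block called 3232 and 2605, with equal totals 2042 and 4916, with upper-quartile factors 2650 and 3617, with TMM factors 3286 and 2722, without both replicate 2 libraries 1214 and 582, without both replicate 1 libraries 268 and 66, and without both replicate 3 libraries 0 and 0. Leaving out 1 library gave 659 to 1583 higher and 258 to 801 lower, lowest without stimulated replicate 3. The cause of these shifts was not tested. Some of these fits also held fewer samples. No member with a reversed sign passed the threshold where it reversed. With equal totals the log2 change was -0.11 for Pecam1, -0.038 for Emcn and -0.089 for Fli1, with and without the block, and with upper-quartile factors, also in either fit, -0.013 for Pecam1. Without both replicate 2 libraries it was 0.11 for Vwf and 0.053 for Ecscr in either fit. With the block and without both replicate 1 libraries it was 0.009 for Cdh5, -0.003 for Emcn, -0.006 for Fli1 and 0.050 for Ecscr, and without both replicate 3 libraries -0.091 for Fli1. Leaving out 1 library without the block gave ranges that crossed 0 for 17 members: Pecam1 -0.56 to 0.68, Cdh5 -0.89 to 0.37, Tie1 -1.03 to 0.36, Emcn -0.25 to 0.63, Esam -1.08 to 0.34, Egfl7 -0.97 to 0.23, Vwf -0.30 to 0.33, Erg -0.75 to 0.35, Fli1 -0.19 to 0.43, Sox17 -0.88 to 0.40, Mmrn2 -1.13 to 0.017, Plvap -0.73 to 0.20, Ecscr -0.52 to 0.57, Cd34 -0.88 to 0.21, Tal1 -0.012 to 1.05, Tmem100 -0.29 to 1.36 and Apold1 -0.63 to 0.14. The other 15 members kept their sign in each alternative. Both extremes came mostly from leaving out 1 of the replicate 2 libraries.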

Other observations

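Of 13 genes that mark particular vessels of the lung, 3 were lower and 0 higher with treatment as the only term, where 4.75% and 8.61% of all genes were called. Fibin, a secreted protein gene, was at 1233, 1223 and 1471 in controls and at 484, 463 and 574 after stimulation (limma adjusted p = 0.0014). Ednrb, an endothelin receptor gene, was at 1452, 1672 and 1689 against 751, 514 and 550, and Vcam1, a leukocyte adhesion gene also made by stromal cells, at 8694, 5980 and 9059 against 4256, 2969 and 3655 (limma adjusted p = 0.00281 and 0.0129). None of these 3 was highest in replicate 2 of both groups. Car4, carbonic anhydrase 4 of alveolar capillaries, was at 2, 362 and 66 in control replicates 1, 2 and 3 and at 4, 422 and 141 in the stimulated ones, so it was near 0 in replicate 1 of both groups, where Pecam1 was at 2126 and 2078. Aplnr, the apelin receptor of general capillaries, had the same order, at 1, 171 and 36 against 1, 81 and 19. Neither passed limma with treatment as the only term (adjusted p = 0.87 for Car4 and 0.859 for Aplnr). The lymphatic genes Mmrn1 and Ccl21a were present at 135, 250 and 208 and at 97, 236 and 132 in the controls, and at 124, 184 and 155 and at 90, 257 and 144 after stimulation. Kit, a receptor of mast cells that some lung endothelial cells also carry, was at 444, 2545 and 771 against 184, 1255 and 442 and passed with the replicate block (-1.03 ± 0.11, limma adjusted p = 0.0011) but not without it (0.47).

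Of the arterial endothelial genes Gja4, Dll4 and Gja5, chosen after their values were seen, Dll4 and Gja5 differed in direction between pairs. Other listed genes, among them Bmx, Hey1 and Hey2, were higher in each pair. Gja4, the gene of connexin 37, went from 36, 598 and 95 to 258, 3668 and 1147, higher in 3 of 3 pairs (3.0 ± 0.19 with the block, limma adjusted p = 0.000189, and 0.159 without). The Notch ligand gene Dll4 went from 143, 720 and 153 to 50, 1995 and 556, which is lower in pair 1 (-1.50) and higher in pairs 2 and 3 (1.47 and 1.85). Gja5, the gene of connexin 40, had the same order of signs, at 134, 771 and 311 against 103, 2074 and 646. Whether pair 1 differs from the others could not be tested, since each pair holds 1 library per group.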
